A study of Mus musculus with 15 samples.

Results

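Cell cycle genes were followed in RNA from sorted nuclei of mouse ventricular muscle. The members are the genes of the filtered count table (a mean count of 10 or more) that belong to a list of 41 cell cycle genes, and 38 of the 16610 genes of that table qualified. They comprise 15 G1 regulators, 9 replication genes, 13 genes of mitosis and the transcription factor gene Meis1. E2f1, Ccnb1 and Aurkb, with mean counts of 8.07, 6.87 and 7.07, fell below the minimum, while Bub1 (11.5), Rrm2 (12.0), Birc5 (12.2) and Plk1 (12.7) lay just above it. All 38 also passed the count filter of the test.

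Nuclei positive for Pcm1, a centriolar satellite protein on the nuclear surface of cardiomyocytes, were sorted, and their RNA was depleted of ribosomal RNA and sequenced as 15 libraries. The genotype and sex labels give 4 knockout female (KO F), 4 knockout male (KO M), 3 wild-type female (WT F) and 4 wild-type male (WT M) libraries, where knockout and wild type refer to Pgr, the gene of the progesterone receptor. By its title, the series concerns control of heart maturation by this receptor that differs between the sexes. The design text calls Pgr_WT and Pgr_KO 2 mouse strains. The knockout allele, the cells it acts in, any background shared by the strains and any treatment are not given in the sources used here. The tissue label carries the numbers 3-6 without a unit, so the age of the hearts is not given either. No label says that replicates come from separate animals, and p-values then measure only the spread between these samples, which may be technical.

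Total counts ranged from 24.4 to 139.4 M reads per library (median 49.9 M), and levels are normalised counts (CPM), scaled to the same library size. Pgr reads ran against the genotype labels, at 10.8 ± 1.64 CPM (SD, n = 4) in KO F and 6.64 ± 0.51 (n = 4) in KO M but 0.126 ± 0.132 (n = 3) in WT F and 0.064 ± 0.0801 (n = 4) in WT M, so knockout and wild type denote labels only. KO F replicate 2, WT F replicate 2 and WT M replicate 2 held 3.01% to 3.52% of the other sex's level of Y-linked genes or Xist, against at most 0.249% in the other 12 libraries. Cardiomyocyte markers were present in each library (46267 to 80824 CPM summed over 10 genes). Markers of other cardiac cells stood apart in 6 libraries, namely KO F and KO M replicates 1 and 2, WT F replicate 1 and WT M replicate 1. The 12 endothelial markers summed to 362 to 743 CPM in these 6 and 24.3 to 81.6 CPM in the other 9, and the 12 fibroblast markers to 1027 to 2469 CPM and 209.6 to 446 CPM. The 12 leukocyte markers summed to 50.6 to 121 CPM and 9.28 to 39.1 CPM, while the 10 mural cell markers overlapped in their sum (549 to 669 and 579 to 771 CPM).

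The cell division cycle is entered through G1, in which D-type cyclins with CDK4 or CDK6 and E-type cyclins with CDK2 phosphorylate the retinoblastoma protein and release E2F transcription factors. E2F factors switch on genes of DNA replication, and genes of mitosis follow later, many of them through MuvB complexes with B-MYB or FOXM1. Rodent cardiomyocytes largely leave the cycle soon after birth and then often keep several or polyploid nuclei, whereas endothelial cells, fibroblasts and leukocytes of the heart retain the capacity to divide. CDK inhibitors such as p27 and p57 and the homeodomain factor MEIS1 are known as restraints on cardiomyocyte division.

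Promoter sequence was examined because mitosis genes share known promoter elements. RefSeq promoter windows (GRCm38.p6, 250 bases before to 50 after the transcript start) were found for 31 of the 38 members and 27025 genes in all. Ccnd1, Ccnd2, Ccne2, Cdkn1c, Rb1, Mcm4 and Ccna2 were without a window. The cell cycle genes homology region (CHR, searched as TTTGAA or TTCGAA) is a site of MuvB complexes, the CCAAT box (CCAAT) binds NF-Y, and the E2F site was searched as TTTCCCGC, TTTGGCGC, TTTCGCGC or TTTGCCGC. Both strands were searched, no motif contains another, and a gene with several windows counted once if any window matched. A CHR match was found in 10 of 12 mitosis members, 2 of 8 replication members and 2 of 10 G1 regulators, beside 21.7% of all genes with a window. CCAAT boxes were found in 10 of 12, 7 of 8 and 7 of 10, beside 41.1% of all genes, and E2F sites in 1 of 12, 4 of 8 and 3 of 10, beside 2.6%. Each match is only a run of letters and no measured binding site.

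The 150 bases before the start are printed for 6 members that differ in their results: Mki67, Top2a and Cdk1, mitosis genes with steep slopes on other-cell markers; Ccnb2, a mitosis gene with no called slope; Mcm3, the replication gene with the steepest slope; and Tyms, a replication gene with a slope near 0. Capitals mark matches to the CHR, the CCAAT box or the E2F site on either strand (TTCAAA and ATTGG are the CHR and CCAAT box read from the other strand). All lie on the minus strand, at chr7:135716380-135716529 (Mki67), chr11:99024190-99024339 (Top2a), chr10:69352913-69353062 (Cdk1), chr9:70421555-70421704 (Ccnb2), chr1:20820313-20820462 (Mcm3) and chr5:30073626-30073775 (Tyms), and read 5′ to 3′ toward the start.
Mki67: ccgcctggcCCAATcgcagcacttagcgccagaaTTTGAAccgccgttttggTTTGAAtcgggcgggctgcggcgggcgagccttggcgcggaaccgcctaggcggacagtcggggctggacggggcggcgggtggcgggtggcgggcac
Top2a: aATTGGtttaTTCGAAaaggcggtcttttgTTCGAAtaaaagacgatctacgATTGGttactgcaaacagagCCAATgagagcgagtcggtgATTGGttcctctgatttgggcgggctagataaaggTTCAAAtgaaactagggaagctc
Cdk1: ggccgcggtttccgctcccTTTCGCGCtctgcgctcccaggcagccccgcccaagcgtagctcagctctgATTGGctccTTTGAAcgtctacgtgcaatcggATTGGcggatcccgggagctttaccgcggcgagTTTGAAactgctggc
Ccnb2: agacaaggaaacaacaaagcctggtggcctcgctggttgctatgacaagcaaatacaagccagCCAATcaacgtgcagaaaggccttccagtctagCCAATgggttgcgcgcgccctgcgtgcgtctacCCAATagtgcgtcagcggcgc
Mcm3: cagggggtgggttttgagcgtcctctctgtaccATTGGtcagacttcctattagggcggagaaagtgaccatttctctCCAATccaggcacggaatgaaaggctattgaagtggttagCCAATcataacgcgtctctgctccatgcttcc
Tyms: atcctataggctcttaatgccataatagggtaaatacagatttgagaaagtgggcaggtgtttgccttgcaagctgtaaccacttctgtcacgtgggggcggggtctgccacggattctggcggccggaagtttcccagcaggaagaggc

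Top2a held 3 CHR and 4 CCAAT matches in these bases, Mki67 2 and 1, and Cdk1 2 and 2 with 1 E2F site. Ccnb2 and Mcm3 held 3 CCAAT boxes each and no CHR. Outside the printed bases, the longer window of Ccnb2 holds 2 CHR matches and that of Mcm3 holds 2 E2F sites. No motif was found in the printed bases of Tyms. Among members with a called slope on the markers, 9 of 18 had a CHR match, and among those without, 5 of 13.

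Median levels per kilobase of gene body were highest in G1 regulators and lowest in mitosis genes, with overlapping ranges. Counts cover whole gene bodies, introns included, so a level here is mean CPM over the 15 libraries divided by gene length in kilobases. G1 regulators had a median of 0.281 CPM per kb (0.0125 to 2.5), replication genes 0.076 (0.0375 to 0.778) and mitosis genes 0.0281 (0.00714 to 0.0806). The highest level was that of Meis1 (2.62 CPM per kb), followed among G1 regulators by Cdkn1b, which encodes the inhibitor p27 (2.5), Cdk4 (1.57) and E2f3 (1.07). Among replication genes the sliding clamp gene Pcna (0.778), the thymidylate synthase gene Tyms (0.312) and the helicase subunit gene Mcm7 (0.293) were highest. The mitosis genes with the highest levels were Mki67 (0.0806), Ccnb2 (0.064) and Ccna2 (0.0594), and only Mki67 of these lay above the median of the replication genes. In the 9 libraries with few other-cell markers the order differed, with medians of 0.0171 CPM per kb for Mki67, 0.0545 for Ccnb2 and 0.0468 for Ccna2.

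Many cell cycle genes, among them Mki67, Top2a, Cdk1, Cdkn1c and E2f7, were higher in libraries with more reads of other cardiac cells. A marker score was computed for each library as the mean over the endothelial, fibroblast, mural and leukocyte lists of the list's mean log2(CPM + 0.1), and the slope is the log2 change of a gene per unit of that score with the label groups held. No member is in a marker list. Of the 38 members, 22 had a higher and 1 a lower level with a higher score (edgeR quasi-likelihood test, adjusted p below 0.05), and 15 were not called. Over all 17455 tested genes, 30.0% were called, 20.8% higher and 9.19% lower, and the median slope was -0.02, against 0.28 over the members. With replicate number as a block, 12 members were called (19.1% of tested genes). E2f7, Rrm2, Cdk1, Bub1 and Birc5 had a mean below 10 counts in the 9 libraries with few other-cell markers (4.78 to 9.56) and met the minimum only through the other 6, so the choice of members favours a positive slope for them. Of the other 33 members, 17 were called higher and 1 lower. In bulk RNA, fewer cells of a type and less RNA per cell cannot be told apart, and which cells the members' reads came from was not tested.

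**Figure D1:**
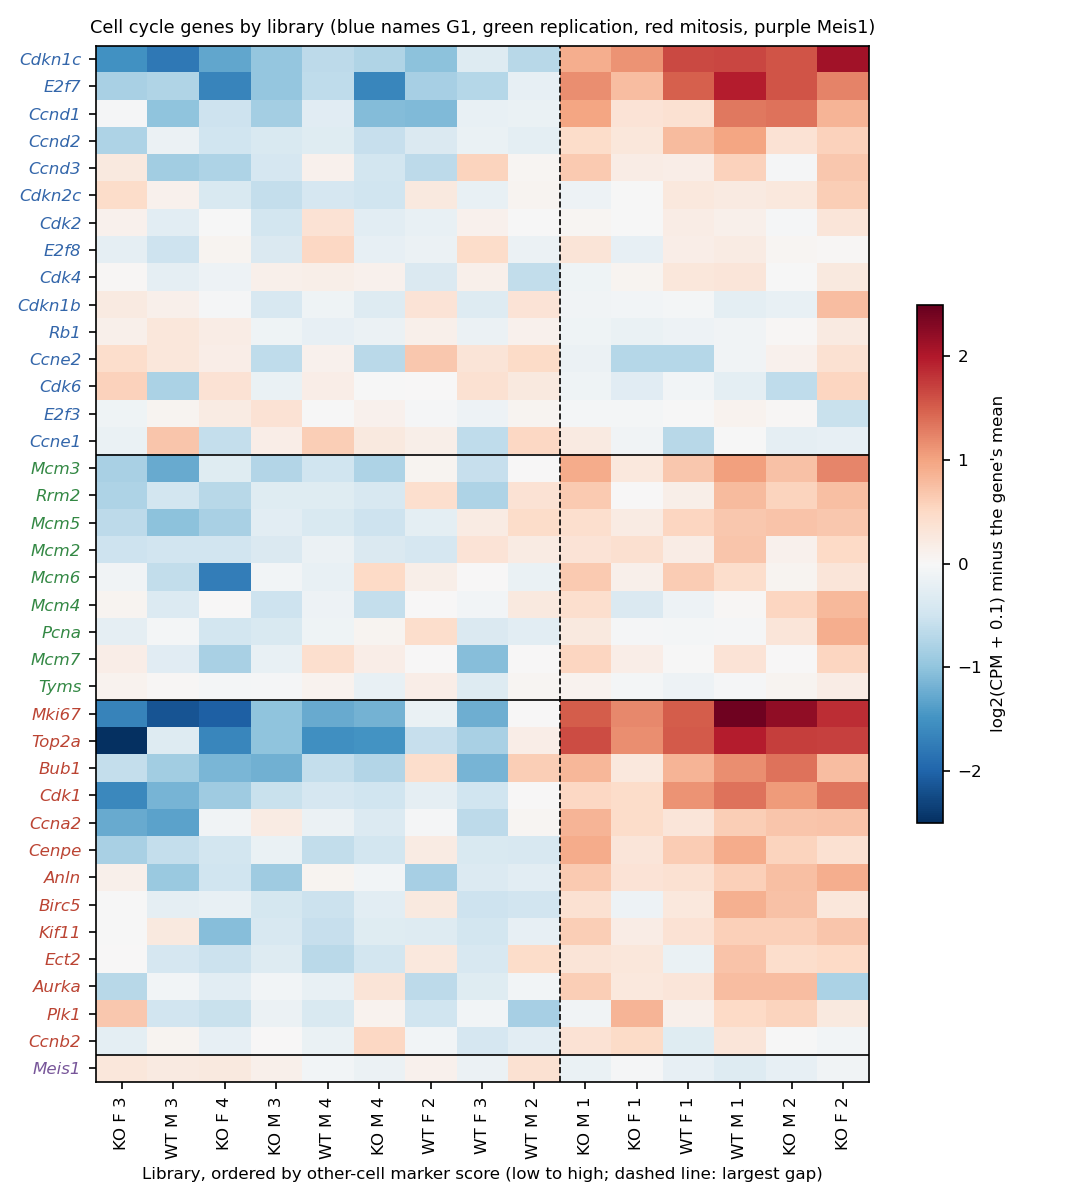
Level of 38 cell cycle genes (rows, grouped by role) in 15 libraries (columns, ordered by other-cell marker score). Colour is log2(CPM + 0.1) minus the gene's mean over the libraries, and the dashed line marks the largest gap in the score, between -0.13 and 1.06. The 6 libraries on the right are red in Cdkn1c, E2f7, Mki67, Top2a and Cdk1, while rows such as Rb1, E2f3 and Tyms vary little.

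The marker score also set the 6 libraries apart from the other 9 for single members. In 11 of 38 members the levels of the 6 libraries lay above those of all 9 others, and in 0 members below, beside 13.4% and 1.39% of tested genes. These 11 were 4 G1 regulators (Ccnd1, Ccnd2, Cdkn1c and E2f7), 1 replication gene (Mcm3) and 6 mitosis genes (Mki67, Top2a, Cdk1, Ccna2, Anln and Cenpe). Of the 11, Cdk1 and E2f7 met the count minimum only through the 6 libraries. The ratio of the median level in the 6 to that in the 9 exceeded 2 in 7 of 13 mitosis genes. It did so in 3 of 9 replication genes and 3 of 15 G1 regulators. Cdk1, Bub1, Rrm2 and E2f7, which met the count minimum only through the 6, are among these. The share of all tested genes with such a ratio was not computed. The libraries were split by a score made of the markers themselves, so separation by these markers is no independent result. Within the score, all 12 endothelial and all 12 fibroblast markers separated the same libraries, as did 5 of 10 mural and 7 of 12 leukocyte markers. The mural marker Abcc9 separated them in the opposite direction (364 to 413 CPM in the 6, 449 to 585 CPM in the 9, slope -0.11, adjusted p = 0.00963). Of these markers, Higd1b (mural) and Cd79a (B cells) were at 0 in at least 1 of the 9 libraries. No cardiomyocyte marker of 10 separated them.

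Of the mitosis genes 11 of 13 were called higher, beside 20.8% of tested genes, with a median slope of 0.42 (0.07 to 1.44). Of the 10 that did not depend on the 6 libraries for the count minimum, 8 were called higher. With the replicate block 4 of 13 were called higher (Mki67, Top2a, Cdk1 and Anln), beside 14.8% of tested genes. Mki67, which encodes the proliferation antigen Ki-67 (chromosome 7, 135689784 to 135716361, minus strand), stood at 2.86, 4.51, 0.306 and 0.211 CPM in KO F replicates 1 to 4 and at 3.57, 5.9, 0.539 and 0.468 CPM in KO M replicates 1 to 4. In WT F it stood at 3.56, 1.05 and 0.454 CPM, and in WT M at 6.89, 1.19, 0.187 and 0.439 CPM. The 6 libraries with many other-cell markers held 2.86 to 6.89 CPM and the others at most 1.19 CPM, a ratio of medians of 8.89. The slope was 1.44 ± 0.098 (SE, adjusted p = 4.58e-09), the steepest among the members.

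Top2a, the DNA topoisomerase that untangles sister chromatids (chromosome 11, 98992943 to 99024189), ranged from 1.47 to 2.64 CPM in the 6 libraries (median 2.14) and from 0.0255 to 0.688 CPM in the 9 (median 0.254). Its lowest value, in KO F replicate 3, was 1 read. Its slope was 1.39 ± 0.13 (adjusted p = 2.17e-07). Cdk1, the kinase that drives entry into mitosis (chromosome 10, 69335146 to 69352938), stood at 0.423 to 0.884 CPM in the 6 and 0.0255 to 0.284 CPM in the 9, with medians of 0.713 and 0.17 CPM. The 9 libraries held 1 to 23 Cdk1 reads each, and the slope was 1.01 ± 0.092 (adjusted p = 1.46e-07).

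The spindle checkpoint kinase gene Bub1 had a slope of 1.12 ± 0.18 (adjusted p = 0.000125), but its levels overlapped, at 0.222 to 0.581 CPM in the 6 and 0.0159 to 0.308 CPM in the 9 libraries. The kinetochore motor gene Cenpe (1.23 to 1.93 against 0.51 to 1.13 CPM) had a shallower slope of 0.48 ± 0.073, and Ccna2, the cyclin of S phase and early mitosis (0.497 to 0.781 against 0.0936 to 0.46 CPM), one of 0.51 ± 0.11. Called slopes between 0.29 and 0.42 were found for the cytokinesis genes Anln (0.42) and Ect2 (0.29), the passenger complex gene Birc5 (0.42), the spindle motor gene Kif11 (0.35) and the centrosome kinase gene Aurka (0.29). The polo kinase gene Plk1 had a slope of 0.27 ± 0.13 (adjusted p = 0.133), with 0.186 to 0.444 CPM in the 6 and 0.0711 to 0.382 CPM in the 9 libraries. Ccnb2, a B-type cyclin, had a slope of 0.07 ± 0.074 (adjusted p = 0.521), at 0.689 to 1.25 against 0.625 to 1.28 CPM. Levels of Ccnb2 thus covered the same range in both sets of libraries, unlike those of its partner kinase gene Cdk1.

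**Figure D2:**
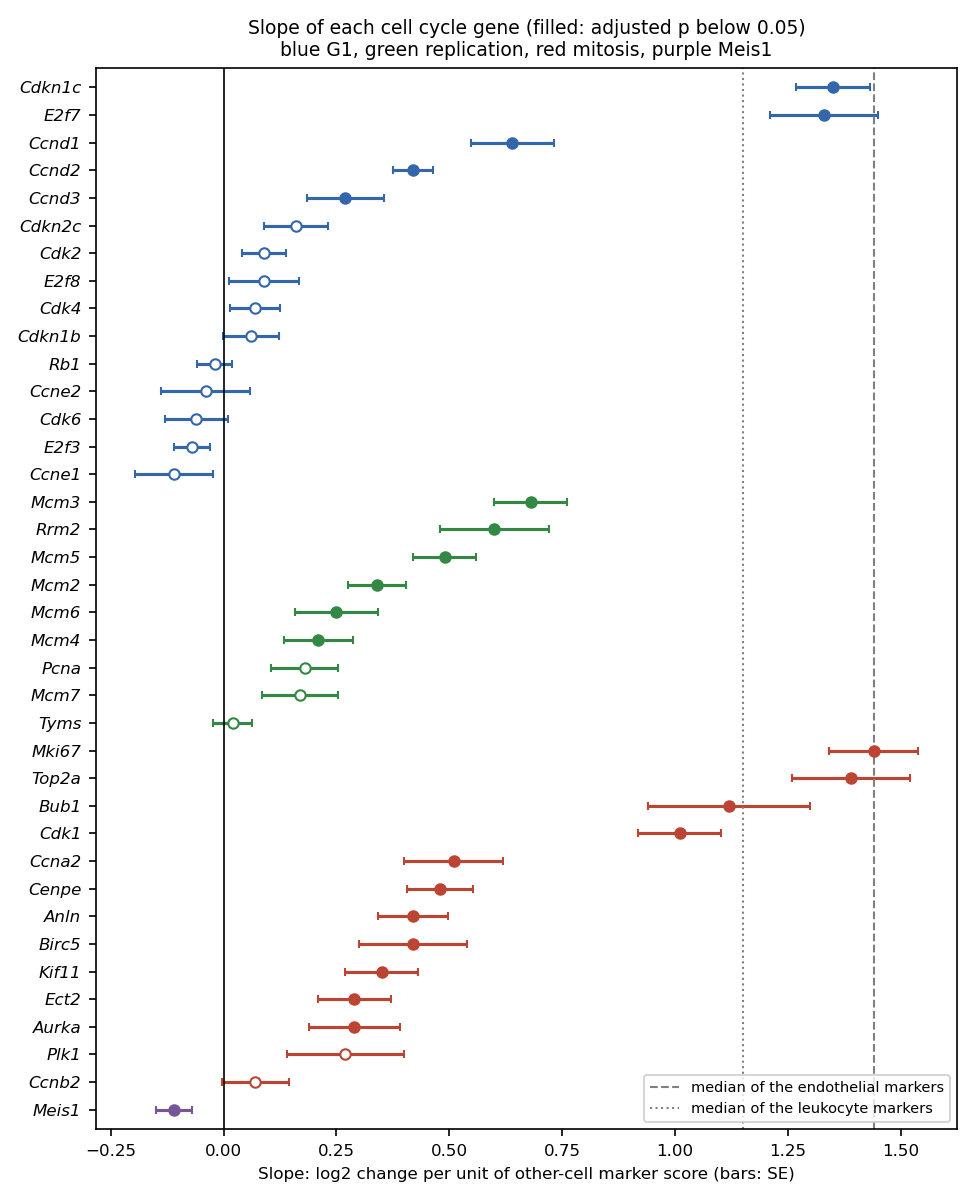
Slope on the other-cell marker score (x axis, log2 change per unit of score, with SE) for 38 cell cycle genes (y axis, grouped by role), filled where the adjusted p was below 0.05. Mki67, Top2a, Cdkn1c and E2f7 lie near the median slope of the endothelial markers (1.44, dashed). The fibroblast markers had a similar median (1.46, not drawn), and the dotted line is the median of the leukocyte markers (1.15). Most G1 regulators lie near 0.

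Replication genes were called higher in 6 of 9, beside 20.8% of tested genes, with a median slope of 0.25 (0.02 to 0.68). Of the 8 that did not depend on the 6 libraries for the count minimum, 5 were called higher. With the replicate block 2 of 9 were called higher, beside 14.8% of tested genes. The MCM helicase opens DNA at replication origins, and its subunit genes differed in slope. Mcm3 (chromosome 1, 20802968 to 20820312) stood at 0.928, 1.89, 0.382 and 0.592 CPM in KO F, 1.52, 1.31, 0.412 and 0.401 CPM in KO M, 1.26, 0.788 and 0.473 CPM in WT F and 1.63, 0.759, 0.257 and 0.505 CPM in WT M. The 6 high-marker libraries held the 6 highest values, and the slope was 0.68 ± 0.08 (adjusted p = 3.26e-06). Mcm5 (0.49 ± 0.07, adjusted p = 3.31e-05) and Mcm2 (0.34 ± 0.064, adjusted p = 0.000527) were also called, and Mcm6 (0.25, adjusted p = 0.0494) and Mcm4 (0.21, adjusted p = 0.0492) passed by a small margin. Mcm7 did not pass (0.17 ± 0.084, adjusted p = 0.152), although the subunits act in 1 complex. A test of the differences in slope between subunits was not run.

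The nucleotide supply genes also differed. Rrm2, the regulated subunit of ribonucleotide reductase, stood at 0.202 to 0.419 CPM in the 6 libraries and 0.0757 to 0.3 CPM in the 9. Its slope was 0.6 ± 0.12 (adjusted p = 0.000791). Rrm2 met the count minimum only through the 6 libraries, which favours a positive slope. Tyms, which makes thymidylate, stood at 4.4 to 5.48 CPM in the 6 and 3.79 to 5.4 CPM in the 9, with medians of 4.84 and 4.91 CPM and a slope of 0.02 ± 0.043 (adjusted p = 0.779). Pcna (3.02 to 5.99 against 2.24 to 4.28 CPM) had a slope of 0.18 ± 0.074 (adjusted p = 0.0803). The ranges of Tyms and Pcna overlapped, and their highest values came from the same library, KO F replicate 2.

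Among the G1 regulators, 5 of 15 were called higher and 0 lower, beside 20.8% and 9.19% of tested genes. The median slope was 0.09 (-0.11 to 1.35). With the replicate block also 5 of 15 were called higher, beside 14.8% of tested genes. Both sets of 5 include E2f7, which met the count minimum only through the 6 high-marker libraries. Of the other 14, 4 were called higher without the block. The D-type cyclins, which receive growth signals, were all called. Ccnd1 (chromosome 7, 144929931 to 144939925) stood at 2.7 to 5.59 CPM in the 6 libraries and 0.938 to 2.06 CPM in the 9, with a slope of 0.64 ± 0.093 (adjusted p = 4.39e-05). Ccnd2 (chromosome 6, 127125162 to 127152193) stood at 18.8 to 30.9 CPM and 9.0 to 13.9 CPM, with a slope of 0.42 ± 0.044 (adjusted p = 8.52e-07). Ccnd3 overlapped (20.3 to 33.1 and 11.2 to 30.4 CPM) and had a slope of 0.27 ± 0.086 (adjusted p = 0.024). The 6 libraries thus lay above the others for Ccnd1 and Ccnd2 but not for Ccnd3, of which WT F replicate 3 held 30.4 CPM.

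Cdkn1c, which encodes the CDK inhibitor p57 (chromosome 7, 143458339 to 143461050), stood at 1.01, 2.07, 0.0765 and 0.106 CPM in KO F, 0.855, 1.4, 0.159 and 0.2 CPM in KO M, 1.49, 0.15 and 0.303 CPM in WT F and 1.51, 0.213, 0.0468 and 0.22 CPM in WT M. The lowest of the 6 high-marker libraries was above the highest of the others, with a ratio of medians of 9.12, the highest among the 38 members. Its slope of 1.35 ± 0.083 (adjusted p = 1.43e-09) stood beside those of mitosis genes, although p57 is known as an inhibitor of the cycle. E2f7, an E2F family repressor, had a slope of 1.33 ± 0.12 (adjusted p = 2.15e-07), at 0.665 to 1.63 against 0.0423 to 0.284 CPM. E2f7 met the count minimum only through the 6 high-marker libraries, which favours a positive slope. Its close relative E2f8 had a slope of 0.09 (adjusted p = 0.435), at 0.746 to 1.12 against 0.585 to 1.3 CPM.

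The other 10 G1 regulators were not called. Rb1, the retinoblastoma gene, stood at 77.7 to 102 CPM in the 6 libraries and 76.4 to 107 CPM in the 9 (slope -0.02 ± 0.039, adjusted p = 0.714). Cdkn1b stood at 10.5 to 21.5 and 9.37 to 15.8 CPM (0.06 ± 0.062, adjusted p = 0.544), and E2f3, a G1 activator, at 57.1 to 89.8 and 77.4 to 108 CPM (-0.07 ± 0.039, adjusted p = 0.191). The kinase genes Cdk2, Cdk4 and Cdk6 had slopes of 0.09, 0.07 and -0.06, the E-type cyclin genes Ccne1 and Ccne2 of -0.11 and -0.04, and the inhibitor gene Cdkn2c of 0.16 (adjusted p = 0.108). The ranges of all 10 overlapped between the 6 and the 9 libraries.

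**Figure D3:**
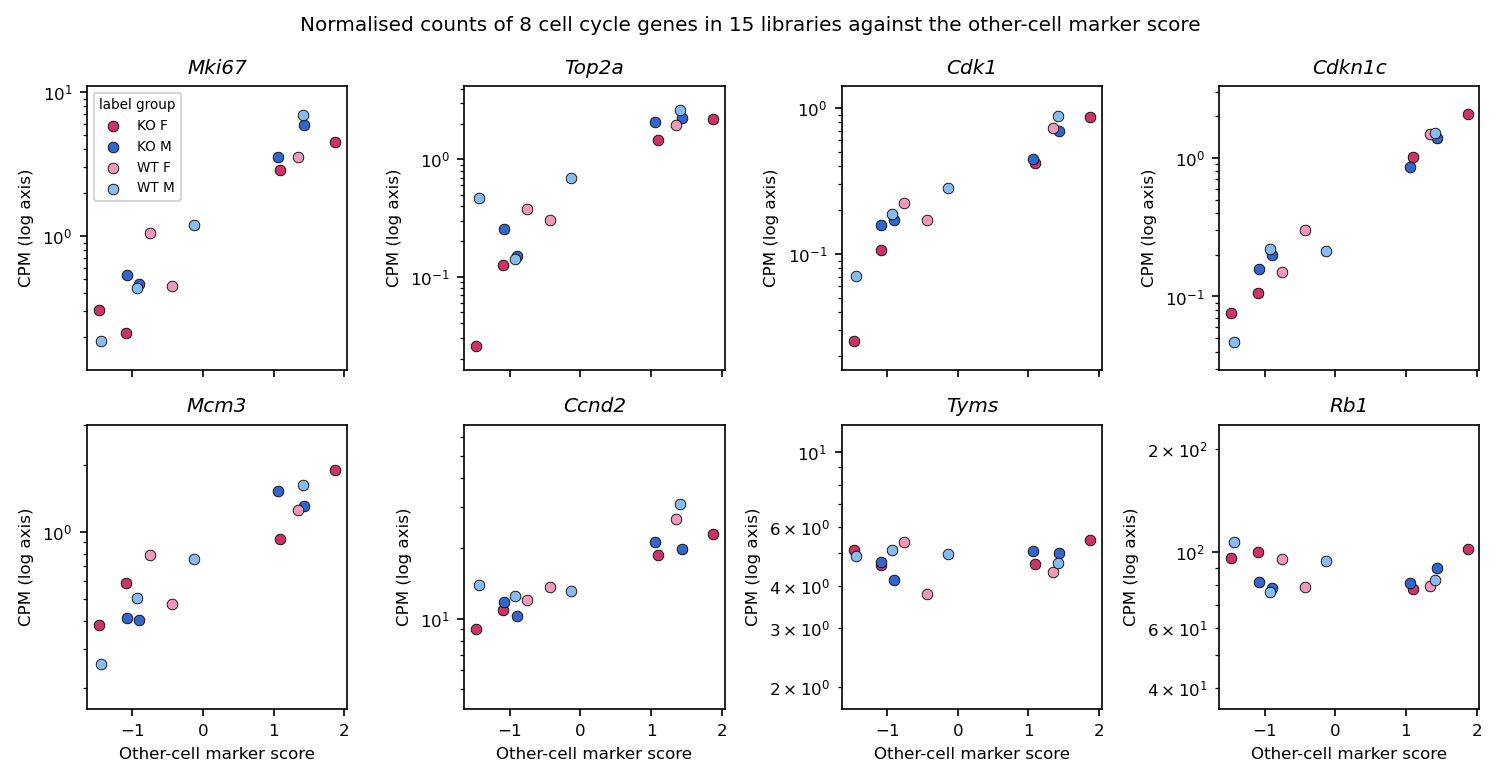
Normalised count (CPM, log axis) of 8 cell cycle genes against the other-cell marker score in 15 libraries, coloured by label group. Mki67, Top2a, Cdk1 and Cdkn1c are higher in the 6 libraries with a score of at least 1.06 in each label group, Mcm3 and Ccnd2 less steeply so, and the ranges of Tyms and Rb1 overlap.

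Meis1, the homeodomain gene (chromosome 11, 18879817 to 19018985), was the only member called lower. It stood at 289 to 355 CPM in the 6 libraries (median 319) and 325 to 468 CPM in the 9 (median 397), with a slope of -0.11 ± 0.039 (adjusted p = 0.0381). The ranges overlapped. Cardiomyocyte markers had a median slope of -0.09, with 2 of 10 called lower. Single libraries ended the call, which held in 7 of 15 fits that left out 1 library. It was lost without KO F replicate 1, 2 or 4, KO M replicate 1, 2 or 3, WT F replicate 1 or WT M replicate 1 (adjusted p up to 0.145, slopes of -0.13 to -0.09 over the 15 fits).

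In each of the 15 fits that left out 1 library, 17 of the 23 calls were kept. Beside Meis1, the calls lost in some fits were Mcm6 (called in 3 of 15, slopes 0.18 to 0.33), Mcm4 (4 of 15, 0.15 to 0.25), Aurka (2 of 15, 0.22 to 0.39), Ccnd3 (11 of 15, 0.23 to 0.36) and Birc5 (14 of 15, 0.3 to 0.49). Birc5 was lost without WT M replicate 1 (adjusted p = 0.108), and Ccnd3 without KO F replicate 2 or 4 or WT M replicate 1 or 3 (adjusted p up to 0.0719). Mcm4 remained called only without KO F replicate 1, WT F replicate 1 or 2 or WT M replicate 1, Mcm6 only without KO F replicate 3 or KO M replicate 2 or 4, and Aurka only without KO F replicate 2 or 4. Without the 3 libraries holding reads of the other sex, 20 calls were kept and Ccnd3, Mcm4 and Mcm6 were lost.

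Replicate numbers moved with the marker score, replicate 1 being a high-marker library in each group. With replicate number as a block, 12 members were called, 11 higher and 1 lower, beside 19.1% of tested genes (14.8% higher). By role these were 5 of 15 G1 regulators, 2 of 9 replication genes, 4 of 13 mitosis genes and Meis1, so the share called was no higher in mitosis genes than in G1 regulators. E2f7 and Cdk1, among those called, met the count minimum only through the 6 high-marker libraries. Of the 23 calls 11 remained, namely Ccnd1, Ccnd2, Cdkn1c, E2f7, Mcm3, Mcm5, Mki67, Top2a, Cdk1, Anln and Meis1, and Cdk4 was gained (0.28 ± 0.084, adjusted p = 0.0328). With the block, Mki67 had a slope of 1.04 ± 0.164 (adjusted p = 0.00037), Cdkn1c of 1.65 ± 0.171 (adjusted p = 8.76e-06) and Top2a of 1.05 ± 0.213 (adjusted p = 0.00292). Bub1 was no longer called (0.37 ± 0.272, adjusted p = 0.364), nor were Ccnd3 (0.43), Mcm2 (0.41), Mcm4 (0.21), Mcm6 (0.16), Rrm2 (0.2), Ccna2 (0.3), Aurka (0.17), Birc5 (0.23), Cenpe (0.23), Kif11 (0.31) and Ect2 (-0.01), the last of which changed sign.

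Among the 9 libraries with few other-cell markers, the score still varied and 36 members could be tested. No member was called, beside 1.37% of 16652 tested genes, and 26 of 36 had a positive slope (median 0.18). By role, 9 of 12 mitosis genes, 6 of 9 replication genes and 10 of 14 G1 regulators were positive, with medians of 0.42, 0.35 and 0.02. Unadjusted p-values lay below 0.05 for Mcm5 (1.08 ± 0.358), Cdk6 (0.63 ± 0.224) and Mki67 (1.33 ± 0.563). Mki67, Cdk1 (1.21 ± 0.616) and Cdkn1c (1.18 ± 0.649) had slopes near those of all 15 libraries with wider errors, and none of the 3 was called. Top2a had a slope of 0.52 ± 0.627 where all 15 libraries gave 1.39, Ccnd2 of 0.0 ± 0.19 and Cenpe of 0.06 ± 0.361.

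Other genes of the pathway, from lists chosen with earlier results of these data known, were read in the same fit. Of 65 tested genes of mitosis that are no members, 45 were called higher and 0 lower, beside 20.8% and 9.19% of all tested genes. Their median slope was 0.57. The cytokinesis genes Kif23 (1.53 ± 0.1) and Prc1 (1.46 ± 0.13), the kinetochore gene Ndc80 (1.55 ± 0.12) and the spindle gene Hmmr (1.17 ± 0.1) had the smallest p. In the 9 libraries with few other-cell markers, Ndc80 reached at most 0.142, Hmmr 0.261, Kif23 0.498 and Prc1 0.569 CPM. Genes near the floor there pass the count filter mainly through the other 6 libraries, which favours a positive slope. How many of the 45 did so was not counted. Of 51 other replication genes 14 were higher and 2 lower (median 0.03), a share near the 30.0% of all tested genes called in either direction. The higher ones with the smallest p were the polymerase subunit gene Pole2 (1.03), Timeless (0.81), the kinase gene Cdc7 (0.57) and the primase gene Prim1 (0.7). The 2 lower ones were Gmnn, the inhibitor of origin licensing (-0.22 ± 0.057, adjusted p = 0.0088), and Orc3, a subunit of the origin complex (-0.12 ± 0.043, adjusted p = 0.0425).

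Of 20 other G1 regulators 7 were higher and 3 lower, beside 20.8% and 9.19% of all tested genes, with a median of -0.02. The pocket protein gene Rbl1 (0.91 ± 0.063) stood at 1.88 to 3.33 CPM in the 6 libraries and 0.433 to 1.09 CPM in the 9, unlike its relative Rb1. Mycn (1.15), E2f2 (0.85) and Skp2 (0.36) were also higher. The lower ones were Fbxw7, which marks cyclin E for degradation (-0.18), Mnat1, a subunit of the CDK-activating kinase (-0.13), and Mdm2, the ligase of p53 (-0.1). Of 16 tested heart regulators 1 was higher, Nrg1, an endothelial growth factor for cardiomyocytes (1.93 ± 0.12, 53.5 to 136 against 1.78 to 10.9 CPM). Lower were Tnni3k, a cardiomyocyte kinase (-0.13), Meis2 (-0.1) and the Hippo effector gene Yap1 (-0.1).

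Between the label groups no member was called. The comparison of KO F with WT F asks whether the genotype label changes these genes in females. In it, 0 of 38 members and 0.0% of tested genes were called. Pgr itself was not called there, at 10.8 CPM in KO F and 0.126 CPM in WT F, and the reason was not tested. In simulated data this comparison recovered 28.4% of log2 changes of 1, 70.1% of changes of 2 and 90.9% of changes of 3. A share of 0.0% thus does not show that no gene differed. In males (KO M minus WT M) 0 members were called beside 0.0115% of genes, and the difference between the sexes in the label effect gave 0 members beside 0.0%. Between the sexes, 0 members were called in KO F minus KO M (0.0229% of genes) and in WT F minus WT M (0.0%). DESeq2 and limma-voom also called 0 members in each of the 5 comparisons. At an unadjusted p below 0.05 the counts were 0, 0, 0, 3 and 1 members in that order, beside 1.74%, 1.42%, 2.49%, 6.37% and 2.09% of tested genes.

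The spread within the label groups was wide for the genes that followed the marker score. Mki67 averaged 1.97 ± 2.09 CPM in KO F, 2.62 ± 2.62 in KO M, 1.69 ± 1.65 in WT F and 2.18 ± 3.17 in WT M (SD, n = 4, 4, 3 and 4), and its log2 fold change in females was 0.24 ± 1.4 (SE). The interval of such a difference includes changes of several fold in either direction, so a count of 0 does not show that these genes were alike between the groups. The mitosis members had positive values in 8 of 13 in KO F minus WT F, 12 of 13 in KO M minus WT M, 4 of 13 in KO F minus KO M and 3 of 13 in WT F minus WT M (medians of 0.19, 0.25, -0.22 and -0.15). In the same order, endothelial markers were positive in 12, 12, 10 and 12 of 12, and fibroblast markers in 12 of 12 each time. Leukocyte markers were positive in 8, 5, 9 and 4 of 11, and mural markers in 6, 8, 4 and 5 of 9. High-marker libraries make up 2 of 4 in KO F and KO M, 1 of 3 in WT F and 1 of 4 in WT M. No member or marker of these lists was called, and whether the signs of members and markers go together was not tested.

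**Figure D4:**
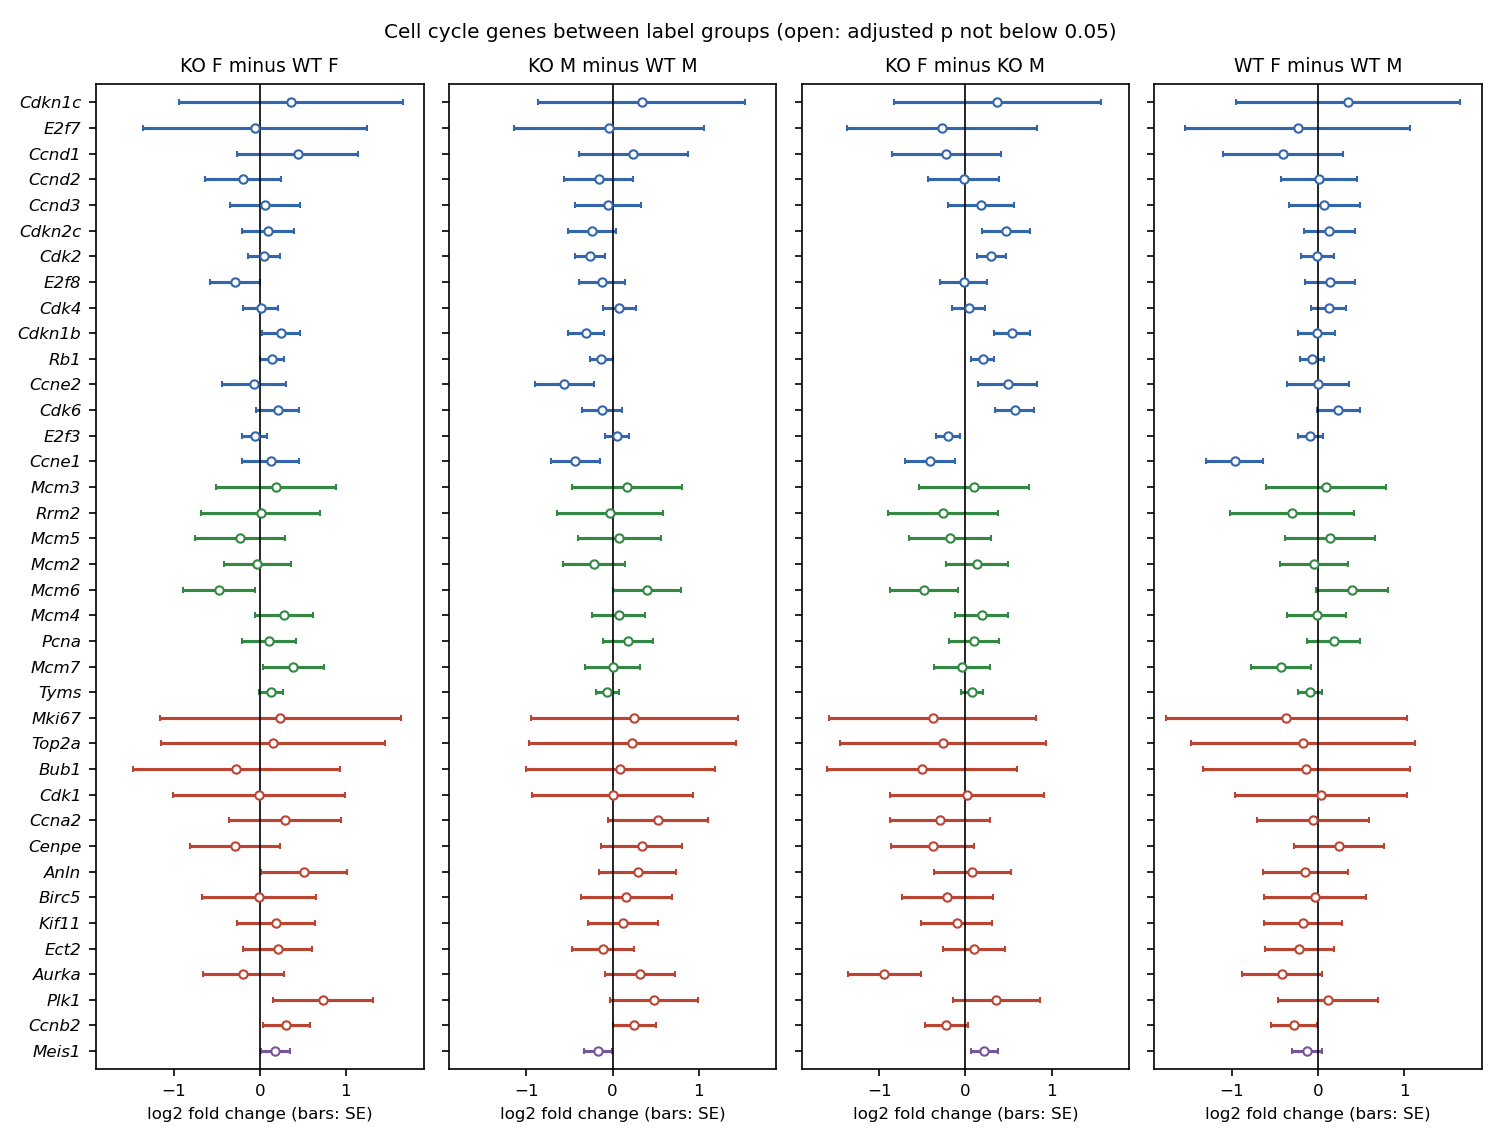
Log2 fold change (x axis, with SE) of 38 cell cycle genes (y axis, grouped by role) in 4 comparisons between label groups; open symbols have an adjusted p not below 0.05. No member was called, and the error bars are widest for Mki67, Top2a, Bub1, Cdkn1c and E2f7, whose values differ most between libraries of a group.

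The 2 members with the smallest p were taken from each label comparison. In females these were Plk1 (0.73 ± 0.58, adjusted p = 1.0) and Mcm6 (-0.47 ± 0.42, adjusted p = 1.0). Plk1 stood at 0.444, 0.258, 0.382 and 0.106 CPM in KO F and 0.23, 0.113 and 0.189 CPM in WT F, and Mcm6 at 2.2, 2.49, 1.86 and 0.529 CPM and 3.14, 2.21 and 2.01 CPM. The groups overlapped for both genes. In males they were Ccne2 (-0.56 ± 0.34, adjusted p = 0.999) and Ccne1 (-0.43 ± 0.29, adjusted p = 0.999). For the difference between the sexes they were Cdkn1b (0.56 ± 0.3, adjusted p = 1.0) and Meis1 (0.35 ± 0.23, adjusted p = 1.0).

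Cdkn1b and Cdk6 led the comparison of the sexes under the knockout label. Cdkn1b stood at 11.9, 21.5, 14.5 and 12.3 CPM in KO F and 11.8, 10.9, 9.37 and 9.96 CPM in KO M, without overlap (3.2% of tested genes did not overlap in either direction), and its log2 fold change was 0.54 ± 0.21 (adjusted p = 0.757). KO F replicate 2, 1 of the 3 libraries that hold other-sex reads, was the highest. Under the wild-type label Cdkn1b was at 12.1, 15.8 and 10 CPM in WT F and 10.5, 15.8, 13.7 and 11.6 CPM in WT M, which overlapped. Cdk6 was at 65.6, 115, 119 and 102 CPM in KO F and 73.9, 51.1, 70.6 and 79.2 CPM in KO M (0.57 ± 0.23, adjusted p = 0.757). Aurka, named after its values were seen, was lower in KO F in the fit (-0.94 ± 0.42, adjusted p = 0.757), at 0.444, 0.162, 0.178 and 0.275 against 0.595, 0.673, 0.333 and 0.468 CPM.

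Under the wild-type label, Ccne1, a cyclin of the G1 to S transition, stood at 0.268, 0.563 and 0.284 CPM in WT F and 0.494, 0.759, 0.866 and 0.813 CPM in WT M (-0.97 ± 0.33, adjusted p = 1.0). WT F replicate 2, which holds reads of the other sex, overlapped with the males. Under the knockout label Ccne1 was at 0.464, 0.42, 0.433 and 0.296 CPM in KO F and 0.595, 0.409, 0.571 and 0.609 CPM in KO M. Mcm7 followed at -0.43 ± 0.35 (adjusted p = 1.0). E2f3 did not overlap, at 83.9, 82.9 and 77.4 CPM in WT F and 89.8, 88.5, 88.9 and 84.1 CPM in WT M (2.96% of tested genes did not overlap in either direction), but the difference was small (-0.09 ± 0.15).

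Some members share their locus with another gene. Genes on the other strand cover 41.9% of Ccne2 (Ints8, with a mean count of 3333 against 81.8), 17.7% of Ccnd1 (listed as LTO1, 301 against 139.7), 17.0% of Rb1 (Rcbtb2), 24.0% of E2f8 (Gm2788), 14.6% of Cdk4 (Tspan31), 11.8% of Cdk2 (Pmel), 11.8% of Ccna2 (Exosc9, 435 against 24.1) and 10.4% of Ccnd2 (9330179D12Rik, 1495 against 902). The library kit keeps strand, and an abbreviation in the name of the count tables reads as reversed-strand counting, but no label explains it. If strand was not used, reads in the shared stretch could have been added to or left out of the values of these members. How such reads were counted is not given. Cdkn1c overlaps Gm44732 over 32.9% of its length, which had a mean count of 0.8. Ccnd3, Pcna, Tyms and Ccnb2 have pseudogene copies by name, with mean counts of 0.0 to 16.2.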

How the data were processed

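The authors deposited raw counts per gene for 15 libraries of RNA from Pcm1-positive nuclei. STAR 2.5.3a, featureCounts 1.5.0 and GRCm38 (mm10) are named in the submitters' processing notes, without their roles. Gene lengths in the tables equal end minus start plus 1, so counts cover whole gene bodies, and unspliced nuclear RNA adds to the level of long genes. The filtered table holds the 16610 of 55536 genes whose mean count is 10 or more, with identical counts, and fits used the larger one.

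Tests were run with edgeR 4.0.16 in R 4.3.3. Filtering by filterByExpr left 17455 genes, TMM factors scaled the libraries, and a quasi-likelihood model (glmQLFit, robust) was fitted to 4 group means, which share 1 estimate of spread (11 residual degrees of freedom). For the slope the centred marker score was added (10 residual degrees of freedom). A call is an adjusted p below 0.05 (Benjamini-Hochberg, over all tested genes), in the 5 label comparisons and the slope. SEs came from the estimate and its F statistic, and CPM use TMM library sizes. Total counts of 24.4 to 139.4 M reads put a floor of 3 counts at 0.0223 to 0.115 CPM, and single low counts carry counting error at least.

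The members and all gene lists were chosen with earlier results of these data known. Values were given for the members of each role with the smallest slope p (5) or highest level (3), for the 2 with the smallest p per label comparison, for 8 fixed members, and for up to 4 other pathway genes per list and direction. Alternatives were DESeq2 1.42.0, limma-voom (limma 3.58.1), DESeq2-type (RLE) scaling, other filters, scores from single marker lists, the score as a covariate, a replicate block and left-out libraries. Deviations from the group means were correlated between same-numbered libraries, except for replicate 2 of KO F and WT F. Correlations ranged from 0.163 to 0.717 between KO M and WT M. They ranged from 0.512 to 0.841 between KO F and KO M, and from 0.232 to 0.86 between WT F and WT M. Between KO F and WT F they were 0.725 for replicate 1, -0.411 for replicate 2 and 0.565 for replicate 3. The main fits hold no replicate term. The fit with replicate number as a block is an alternative, whose values stand beside the slope results it changes. The scripts were tested on simulated data. Motifs were searched with Python 3.11.15.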

Additional observations from a re-analysis of the deposited data

Results flagged for a closer look

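Of 90 combinations of a named member and a group of 4 libraries, 6 had a library far from the other 3 (by Dixon's test of the gap over the range). Chance flags about 1 in 20 such groups, and the flags share libraries. WT M replicate 1, the only WT M library with many markers of other cells, stood apart for 5 members, with Cdkn1c at 1.51 CPM (the others at most 0.22), E2f7 at 1.63 CPM, Ccnd2 at 30.9 CPM (the others 12.5 to 13.9), Mki67 at 6.89 CPM and Cenpe at 1.93 CPM. In KO M replicate 3, Meis1 stood at 397 CPM, above 313 to 326 CPM in the other KO M libraries.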

How the results depend on the processing

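No member was called in any of the 5 label comparisons under any alternative run. The slope call counts (23 members, 5232 genes) stayed within 1.5 times under DESeq2, limma-voom, RLE scaling, other filters, single-list scores and each left-out library (18 to 23 members), and changed with the replicate block (12 members, 3326 genes) and among the 9 low-marker libraries alone (0 members, 228 genes), where fewer samples were fitted and the score spans a narrower range. Genes called over all tested genes between labels were few and moved. KO F minus WT F had 0, but 3 with DESeq2 and 1 each with limma-voom and with the score as covariate. KO M minus WT M had 2, but 4 with DESeq2, 0 with RLE scaling, low-marker libraries alone or without the 3 libraries that hold other-sex reads, and 0 to 1 in the fits that left out 1 library. The interaction had 0, and 1 with DESeq2. KO F minus KO M had 4, but 57 with DESeq2, 10 with limma-voom, 13 with the covariate, 13 with the replicate block, 2 without a filter, 1 in low-marker libraries, 7 without the 3 libraries, and 0 to 10 with 1 library left out. WT F minus WT M had 0, but 14 with DESeq2, 6 with limma-voom, 6 without the 3 libraries, 1 each with the covariate, the block, no filter and low-marker libraries, and 0 to 2 with 1 library left out. The block changed no other call count of members. Slopes of single members changed sign in low-marker libraries for Cdk4 (-0.24), Cdk6 (0.63), Ccne2 (0.04), Cdkn2c (-0.2), E2f3 (0.01), Mcm7 (-0.19), Pcna (-0.29), Tyms (-0.12), Ccnb2 (-0.22), Plk1 (-0.7), Kif11 (-0.47) and Meis1 (0.04). With the replicate block they did so for Cdk6 (0.02), Cdkn1b (-0.05), Mcm7 (-0.03), Tyms (-0.07), Ccnb2 (-0.09) and Ect2 (-0.01). Ccne2 was at 0.0 without KO F replicate 1 and 0.02 without WT F replicate 1, and Cdkn1b at -0.03 without KO F replicate 2 (up to 0.1 with another library left out) and -0.0 without the 3 libraries. Of these only Kif11, Ect2 and Meis1 had been called. Except where the number of samples or genes is named, the cause was not tested. Depth limits members with few reads, such as Top2a and Cdk1 (1 read each in KO F replicate 3), Bub1 (1 read in KO M replicate 3) and Cdkn1c (2 reads in WT M replicate 3).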

Other observations

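The 3 listed genes below the mean of 10 counts also differed between libraries, at few reads each. E2f1, an activator of S phase genes, stood at 0.0605 to 0.574 CPM in the 6 high-marker libraries and 0.0 to 0.142 CPM in the other 9, with a slope of 1.06 ± 0.17 (edgeR adjusted p = 0.000106). Ccnb1, the main mitotic cyclin, stood at 0.129 to 0.357 and 0.0 to 0.075 CPM, with a slope of 1.15 ± 0.14 (adjusted p = 7.65e-06). Its relative Ccnb2 had no called slope. Aurkb, the kinase of the passenger complex to which Birc5 also belongs, stood at 0.115 to 0.434 and 0.0 to 0.0948 CPM. Its slope was 1.12 ± 0.17 (adjusted p = 6.64e-05). E2f1 overlapped between the libraries, and Ccnb1 and Aurkb did not. No library of the 9 held more than 8 reads of E2f1 or Aurkb or more than 5 of Ccnb1. These 3 genes thus passed the count filter of the test through the 6 high-marker libraries, which favours a positive slope.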
